A study of Mus musculus with 7 samples.

Results

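The 10 genes described here are the insulin genes Ins1 and Ins2, the amylin gene Iapp, the transcription factor genes Mafa, Pdx1 and Nkx6-1, and 4 further genes of beta cell function, Ucn3, Slc2a2, G6pc2 and Trpm5. They were picked by symbol from the 55536 genes of a count table, and each symbol matched 1 gene. The table holds RNA sequencing counts of mouse pancreatic alpha cells, sorted from islets by the fluorescence of tdTomato. Control cells (4 libraries) had the genotype Nkx2.2+/+;Gcg-iCre;Rosa26:tdTomato, and knockout (KO) cells (3 libraries) Nkx2.2fl/fl;Gcg-iCre;Rosa26:tdTomato, on a strain spelled C57BL/6J or C57B1/6J. Both groups thus carry the Cre recombinase of the glucagon gene and the red reporter, and deletion is limited to cells in which that Cre has been active. Age and sex are not given, nor whether each library is 1 animal, so p-values measure the spread between these libraries, which may be technical. One KO column has a number that no KO title has and is called the unnumbered KO library, and KO values are always listed as KO 1, KO 2 and unnumbered.

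Insulin and amylin are secretory products of the beta cell, stored in the same granules and released together when glucose rises. MAFA, PDX1 and NKX6-1 are transcription factors of mature beta cells, and MAFA and PDX1 act directly on the insulin promoter. NKX2-2 is a homeodomain factor of several islet endocrine cell types that beta cells need to keep their identity. Alpha cells make glucagon and hold little of these products, so beta cell transcripts in sorted alpha cells can come from beta cells carried through the sort or from the alpha cells. In such bulk libraries, fewer cells of a type and less RNA per cell cannot be told apart.

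Libraries held between 45483504 and 72456557 counts. Control 4, the deepest, stood apart: its counts differed from each of the other controls with a chi-square per degree of freedom between 316 and 377.4, against 40.67 to 49.92 among those 3. The unnumbered KO library, the next deepest, had 140.3 and 201.3 against KO 1 and KO 2, which had 47.09 between them. This measure rises with depth, so part of these gaps can come from depth. Genes detected numbered 31024 in control 4, 23150 to 24153 in the other controls and 24360 to 25873 in KO, and this number can rise with depth too. Nkx2-2, the targeted gene, had normalized counts (counts divided by DESeq2 size factors) of 8596, 11199, 12297 and 9782 over controls 1 to 4, against 7758, 7534 and 7694 over the KO libraries. All KO libraries were lower, at a log2 fold change of KO over control of -0.45 ± 0.13 (SE), adjusted p 0.0223 by DESeq2 and 0.152 by edgeR. Which exons the deletion removes is not given in the sources used here. Cells met the alpha label: 9 alpha cell markers summed to between 119764 and 142446 CPM (counts scaled to a common library total) in controls and 61488 and 77357 in KO, none was at 0 in any library, and 7 of 9 fell past the DESeq2 threshold given below (3 of 9 called by edgeR). Among all genes tested, 397 of 18023 were called lower by DESeq2.

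Beta cell transcripts were present in every library, the lowest count of the 10 genes being 332 for Trpm5. All 10 had a positive log2 fold change from control to KO, from 0.2 for G6pc2 to 0.93 for Iapp. Their median was 0.40, against 0.01 over the 18023 genes tested. Only Iapp rose past the threshold, an adjusted p under 0.05 by DESeq2: 1 of 10, where 4.39% of all genes were called and 2.19% were called higher in KO. In edgeR 0 of 10 passed, where 1.05% were called and 0.404% called higher. At an unadjusted p under 0.05 both tools had the same 5 of 10 (Iapp, Mafa, Ucn3, Slc2a2 and Trpm5), against 6.89% of all genes by DESeq2 and 10.5% by edgeR. Every KO library lay above every control for Iapp and Slc2a2, 2 of 10 against 5.99% of all genes, and the groups overlapped for the other 8.

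The count of calls depended on the libraries and terms in the fit. Without the 2 deepest libraries, control 4 and the unnumbered KO library, 3 of 10 passed (Mafa, Ucn3 and Slc2a2, not Iapp), where 2.93% of all genes were called higher. With a term for them, 7 passed, all but Pdx1, Nkx6-1 and G6pc2, where 3.79% of all genes were called higher. Without control 4 alone, 1 of 10 passed against 2.72%. A covariate for the summed level of Y-linked genes gave 8 of 10 against 3.26%. The column of the unnumbered library carries the number 4, as control 4 does. With the column number as a replicate block in the 6 libraries numbered 1, 2 and 4, 4 of 10 passed by DESeq2, again against 2.93%. They were Iapp (0.89, adjusted p 0.0282), Mafa (0.44, 0.0475), Ucn3 (0.6, 0.000132) and Slc2a2 (0.61, 0.00543). In the same 6 libraries with no block 1 of 10 passed, where 271 of 18590 genes tested were called higher.

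**Figure D1:**
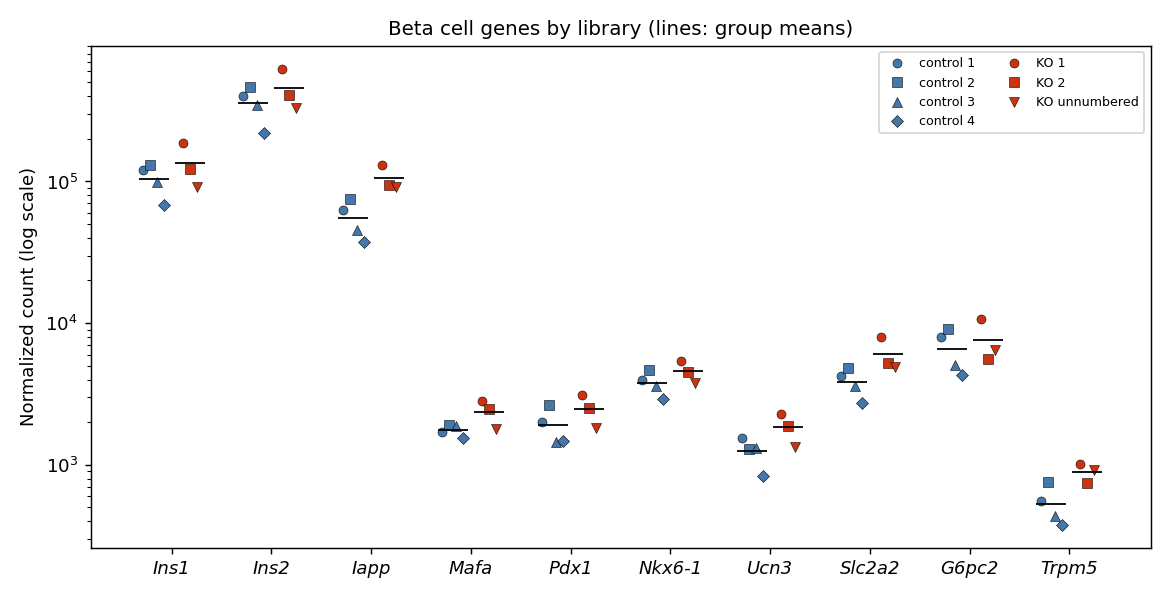
Normalized counts (log scale) of the 10 beta cell genes, 1 point per library, with controls in blue, KO libraries in red and black lines at the group means. KO 1 is the highest KO library for all 10 genes, and the groups are separate for Iapp and Slc2a2.

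Libraries kept nearly the same order from gene to gene. KO 1 was the highest KO library for all 10, control 2 the highest control for 9 and control 4 the lowest control for 9. The unnumbered library was the lowest KO library for 8 of 10. In both groups the deepest library was thus low for most of these genes.

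The start regions of Ins1, Iapp and Slc2a2 are shown because Iapp and Slc2a2 had separate groups and Ins1 is the insulin gene to set them against. Each window is the 250 bases before the RefSeq start site on build GRCm38.p6, 5′ to 3′ on the gene's strand, which is plus for all 3, and 8 of the 10 genes had a window in the RefSeq table. Capitals mark matches on either strand to AAGTG (the core bound by NKX2-2), TAAT (the core bound by PDX1 and other homeodomain factors), CANNTG (the E-box of NEUROD1 and other helix-loop-helix factors) and GCCATCTG, an insulin E-box that overlaps CANNTG. The windows are chr19:52264047-52264296 for Ins1, chr6:142298175-142298424 for Iapp and chr3:28697653-28697902 for Slc2a2.
Ins1: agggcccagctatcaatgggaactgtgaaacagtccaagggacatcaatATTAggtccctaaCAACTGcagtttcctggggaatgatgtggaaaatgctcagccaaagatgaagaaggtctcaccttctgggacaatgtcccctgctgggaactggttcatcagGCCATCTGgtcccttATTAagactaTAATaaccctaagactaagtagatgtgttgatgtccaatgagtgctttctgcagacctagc
Iapp: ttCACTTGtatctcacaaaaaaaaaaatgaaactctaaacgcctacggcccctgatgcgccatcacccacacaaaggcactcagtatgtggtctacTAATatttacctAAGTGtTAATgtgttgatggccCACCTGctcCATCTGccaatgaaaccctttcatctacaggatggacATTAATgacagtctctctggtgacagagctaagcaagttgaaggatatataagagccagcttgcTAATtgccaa
Slc2a2: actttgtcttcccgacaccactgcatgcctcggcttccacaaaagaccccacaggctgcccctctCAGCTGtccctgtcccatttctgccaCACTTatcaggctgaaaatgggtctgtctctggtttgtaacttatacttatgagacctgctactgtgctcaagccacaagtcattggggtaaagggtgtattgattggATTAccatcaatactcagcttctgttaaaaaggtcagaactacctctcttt
Positions count back from the start site, with -1 the base just before it, and give the leftmost base. The Iapp window held AAGTG at -142 and, on the opposite strand, at -248, where it overlaps an E-box. It also held 5 TAAT matches, of which those at -74 and -72 overlap, and 3 E-boxes. In the Ins1 window there were 0 AAGTG matches, 3 TAAT matches and 2 E-boxes, 1 of them inside the insulin E-box at -86. The Slc2a2 window held 1 AAGTG match, at -159 on the opposite strand, 1 TAAT match and 1 E-box. Among the windows not shown, AAGTG also occurred in those of Pdx1 (at -127) and Ucn3 (at -205), whose groups overlapped. The windows of G6pc2, Nkx6-1 and Trpm5 held 0 AAGTG matches, so AAGTG was not particular to the genes with separate groups. Of 32851 windows of this length, 40.7% hold AAGTG, 54.9% TAAT, 66.2% CANNTG and 1.1% GCCATCTG, so the first 3 are common in promoters. A match is a description of letters, not a binding site.

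Ins2 (ENSMUSG00000000215, chromosome 7, 142678656 to 142743381, minus strand) encodes the insulin that mice share with other mammals, and Ins1 (ENSMUSG00000035804, chromosome 19, 52264297 to 52265476, plus strand) is the extra insulin gene of mice and rats. Normalized Ins2 counts were 403481, 463704, 345021 and 219495 over controls 1 to 4, and 624599, 409619 and 328548 over the KO libraries. KO 1 was the highest of all, while the other KO libraries lay inside the control range. The Ins2 log2 fold change was 0.34 ± 0.25 (SE), adjusted p 0.748 by DESeq2 and 0.846 by edgeR (95% interval -0.14 to 0.83). Ins1 counts were 120061, 129947, 98967 and 67817, against 188197, 123060 and 90949 in KO, with a fold change on the log2 scale of 0.36 ± 0.25 (SE), adjusted p 0.7 by DESeq2 and 0.812 by edgeR. Without KO 1, Ins1 was at 0.04 and Ins2 at 0.04, so the size of the insulin difference rested on that library. Without control 4 they were at 0.2 and 0.17, and the highest values with a library left out were 0.58 and 0.53. With the term for the 2 deepest libraries both were at 0.42, with adjusted p 0.023 for Ins1 and 0.0283 for Ins2 by DESeq2. With the Y-linked covariate both were at 0.65, with adjusted p 0.0538 for Ins1 and 0.0483 for Ins2 by DESeq2.

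Both insulin genes together took 0.94%, 1.03%, 0.747% and 0.549% of all counts over the controls, and 1.51%, 0.96% and 0.868% over the KO libraries. Means were 0.816% ± 0.214 (SD, n = 4) and 1.11% ± 0.347 (SD, n = 3), which overlapped (exact two-sided permutation test over 35 splits, p = 0.229). The Wilson 95% interval of the control 1 share ran from 0.937% to 0.942% and covers counting error only, so the number of libraries limits the precision. Glucagon took 12.5% ± 1.06 of control and 6.49% ± 0.8 of KO counts. For each 100 glucagon counts there were 7.05, 9.09, 5.52 and 4.66 insulin counts in controls and 24.4, 13 and 14.8 in KO. This ratio, which both genes enter, was higher in every KO library (exact permutation p = 0.0286, the smallest that 4 against 3 libraries can give). The glucagon share alone was lower in every KO library, so this p-value does not show a change in insulin. Of the counts without glucagon, insulin took 1.08%, 1.16%, 0.864% and 0.622% over the controls. Over the KO libraries it took 1.61%, 1.04% and 0.922%, with KO 1 alone above the controls.

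Ins1 followed Ins2 more closely than any other gene ranked. For each 100 Ins2 counts there were 29.8, 28, 28.7 and 30.9 Ins1 counts over the controls, against 30.1, 30 and 27.7 over the KO libraries. The mean was 29.3 ± 1.26 (SD, n = 4) for controls, against 29.3 ± 1.39 (SD, n = 3) for KO (exact permutation p = 0.971). Likeness was measured as the SD over the 7 libraries of the log2 ratio to Ins2, which was 0.0593 for Ins1, the lowest of 12724 genes with a mean normalized count of at least 100, whose median was 0.487. Of the 25-base words in the Ins1 transcript, 6.3% also occur in an Ins2 transcript, as do 0.7% of its 50-base words and 0 of its 75-base words. How the authors' counting treated reads that match both genes is not given in the sources used here.

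Iapp (ENSMUSG00000041681, chromosome 6, 142298423 to 142303961, plus strand) encodes amylin, the peptide secreted with insulin. Its normalized counts were 63153, 75163, 45380 and 37119 over the controls, against 131060, 93741 and 91673 over the KO libraries. Every KO library lay above every control, and the mean rose from 55204 ± 17177 (SD, n = 4) to 105491 ± 22167 (SD, n = 3). The fitted fold was 1.91 (95% interval 1.41 to 2.59), and the log2 fold change was 0.93 ± 0.22 (SE), adjusted p 0.00151 by DESeq2 and 0.153 by edgeR. The DESeq2 call was lost without KO 1 (0.75, adjusted p 0.0847), without the unnumbered KO library (1.02, 0.112) and without both deepest libraries (0.87, 0.0918).

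Iapp also stood higher against Ins2. For each 100 Ins2 counts there were 15.7, 16.2, 13.2 and 16.9 Iapp counts over the controls, and 21, 22.9 and 27.9 over the KO libraries. The groups did not overlap. The gap between them was wider than the control range in counts per 100, but not in log2 ratios. There the gap ran from -2.56 to -2.25 and the controls from -2.93 to -2.56. The mean was 15.5 ± 1.64 (SD, n = 4) for controls, against 23.9 ± 3.57 (SD, n = 3) for KO, a ratio of 1.54 between the groups (exact permutation p = 0.0286, unadjusted, 9 such ratios tested).

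Every gene was also fitted as a ratio to Ins2, by giving DESeq2 the Ins2 count of each library as its size factor. There 0 of the 9 other beta cell genes passed, where 0.798% of all genes were called and 0.586% called lower in KO. In edgeR with the same scaling 0 of 9 passed, against 0.124% of all genes. A count of 0 does not show that the ratios are equal. In this DESeq2 fit Ins1 had an SE of 0.3, though its log2 ratio to Ins2 had an SD of 0.0593 over the 7 libraries. Iapp had an SE of 0.31, with SDs of 0.159 within controls and 0.211 within KO. The fit thus had wide errors beside the spread of these ratios, and the 0 of 9 says little about them. On simulated data the DESeq2 fit scaled to Ins2 recovered 18% of changes of log2 size 1. There the changes were in genes drawn at random, and Ins2 varied independently of every other gene. The 18% is thus not the recovery to be had for genes that follow Ins2. At an unadjusted p under 0.05 there was 1 of 9 by DESeq2, Iapp, and 0 of 9 by edgeR, against 3.9% and 5.35% of all genes. Iapp had a log2 ratio of KO to control of 0.63 ± 0.31 (SE) in this fit (0.02 to 1.24 as the 95% interval, adjusted p 0.839 by DESeq2). Iapp and Slc2a2 had every KO ratio above every control ratio, 2 of 9 against 1.18% of all genes, and 0 of 9 had the reverse, against 4.08%.

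With the log2 level of Ins2 as a covariate, in place of a divisor, 2 of 8 genes passed (Ins1 and Ins2 left out), where 4.07% of all genes were called. They were Iapp, with a log2 fold change of 0.69 and an adjusted p of 3.91e-06 by DESeq2, and Slc2a2, with 0.37 and 0.0121.

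**Figure D2:**
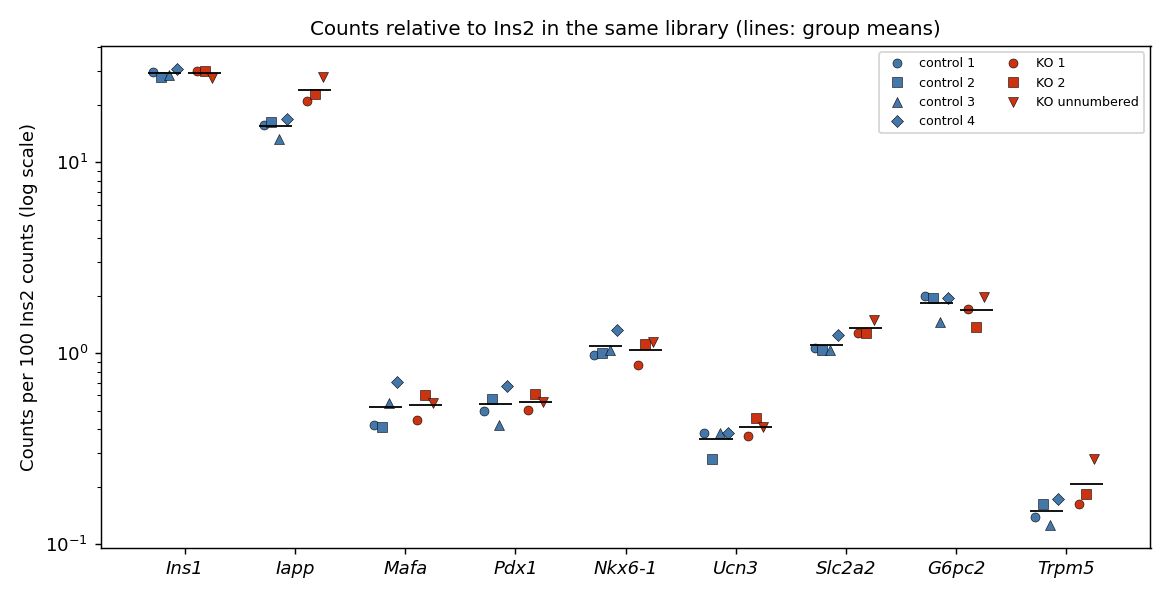
Counts per 100 Ins2 counts of the same library (log scale) for the 9 other beta cell genes, 1 point per library, with black lines at the group means. Ins1 stays between 27.7 and 30.9 in all 7 libraries, while Iapp lies between 13.2 and 16.9 in controls and between 21 and 27.9 in KO libraries.

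**Figure D3:**
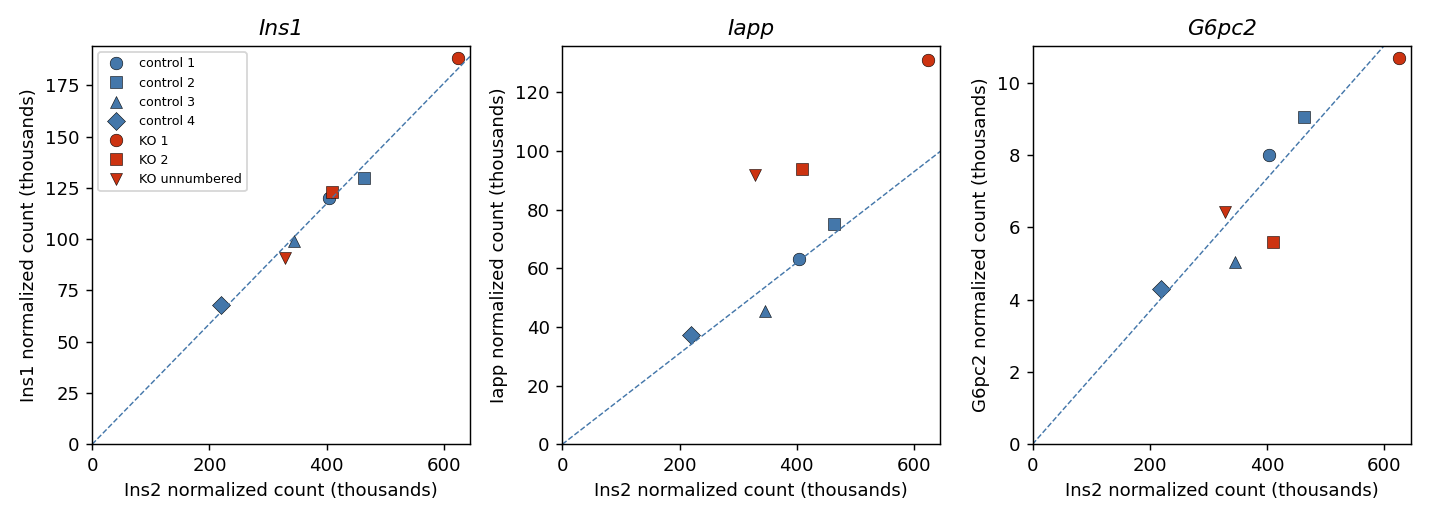
Normalized counts of Ins1, Iapp and G6pc2 against those of Ins2, 1 point per library, with a dashed line at the mean control ratio. Ins1 lies along the line in all 7 libraries, the 3 KO libraries lie above it for Iapp, and G6pc2 scatters on both sides.

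Markers of other islet cells also differed between the groups. For comparison, 2.19% of all genes were called higher in KO by DESeq2 and 0.404% by edgeR. Delta cells make somatostatin, and rodent delta cells are known to hold some amylin. The 4 delta cell markers summed to between 3748 and 6939 CPM in controls and 6404 and 11758 in KO, and 1 of 4 passed (Rbp4, log2 fold change 1.55 ± 0.44 (SE), adjusted p 0.013 by DESeq2 and 0.0761 by edgeR). The 2 gamma cell markers, Ppy and Pyy, summed to between 5854 and 10071 in controls and 16515 and 21555 in KO, and both passed, with log2 fold changes of 1.51 (adjusted p 2.59e-08 by DESeq2) and 1.01 (6.09e-07). By edgeR their adjusted p was 0.0474 and 0.0536, so Pyy was not called there. For each 100 Sst (somatostatin) counts there were 19.2, 20.2, 21.1 and 19.9 Iapp counts over the controls, against 22.5, 31.3 and 22.4 over the KO libraries, a comparison chosen after its values were seen. All KO ratios were above the controls, KO 1 and the unnumbered library by little. The part of these cells in the Iapp result was not tested. Acinar markers summed to between 5.51 and 208 in controls and 36.2 and 123 in KO, and endothelial markers to at most 12.8 in any library. Epsilon cell markers summed to between 0.44 and 23.3 in controls and 51.1 and 89.5 in KO, with Mboat4 at 0 in control 3. Duct markers had 145 to 215 against 221 to 247, mesenchymal markers 9.54 to 30.6 against 17.9 to 30.9 and Schwann cell markers 10.4 to 15.2 against 11.5 to 15.9. Leukocyte markers had 15 to 23.6 against 12.2 to 13.3, with Ptprc at 0 in controls 1 and 2 and Lyz2 at 0 in controls 1 and 4.

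The transcription factor genes had positive fold changes, and none passed the threshold. Mafa (ENSMUSG00000047591, chromosome 15, 75745490 to 75748228, minus strand), whose product activates the insulin genes in mature beta cells, had normalized counts of 1702, 1901, 1893 and 1555 over the controls, against 2801, 2485 and 1797 over the KO libraries. KO 1 and KO 2 were above all controls and the unnumbered library was not. Its log2 fold change was 0.42 ± 0.17 (SE), adjusted p 0.183 by DESeq2 and 0.331 by edgeR. It passed without the unnumbered KO library (0.58, adjusted p 0.00438) and without both deepest libraries (0.53, 0.000544 by DESeq2).

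Pdx1 (ENSMUSG00000029644, chromosome 5, 147269959 to 147275848, plus strand) encodes the factor needed for pancreas formation and insulin transcription. It had 2010, 2651, 1455 and 1479 normalized counts over the controls, against 3126, 2512 and 1812 over the KO libraries, with KO 1 above all controls. Its log2 fold change was 0.39 ± 0.24 (SE), adjusted p 0.627 by DESeq2 and 0.711 by edgeR (95% interval -0.09 to 0.86). Over 20 alternative fits the Pdx1 value ran from 0.13 to 0.72, and 1 of them passed (adjusted p 0.00374 by DESeq2). Nkx6-1 (ENSMUSG00000035187, chromosome 5, 101658139 to 101664996, minus strand) encodes a repressor of other islet fates in beta cells. It had 3958, 4658, 3604 and 2892 normalized counts, against 5390, 4534 and 3763, again with KO 1 alone above all controls, and its fold change on the log2 scale was 0.27 ± 0.18 (SE), adjusted p 0.68 by DESeq2 and 0.713 by edgeR (95% interval -0.08 to 0.63). Over 20 alternative fits the Nkx6-1 value ran from 0.08 to 0.47, and 1 of them passed (adjusted p 0.0489 by DESeq2).

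Against Ins2 none of these 3 genes differed beyond the spread between libraries. For each 100 Ins2 counts Mafa had 0.522 ± 0.139 (SD, n = 4) for controls, against 0.534 ± 0.0799 (SD, n = 3) for KO (exact permutation p = 0.8). Pdx1 had 0.541 ± 0.107 (SD, n = 4) for controls, against 0.555 ± 0.0564 (SD, n = 3) for KO (exact permutation p = 0.8). Nkx6-1 had 1.09 ± 0.156 (SD, n = 4) for controls, against 1.04 ± 0.153 (SD, n = 3) for KO (exact permutation p = 0.686). The 95% intervals of their log2 ratios by DESeq2 were -0.66 to 0.72, -0.62 to 0.69 and -0.7 to 0.56, so this fit does not exclude differences within those bounds.

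Slc2a2 (ENSMUSG00000027690, chromosome 3, 28697903 to 28731359, plus strand) encodes GLUT2, the main glucose transporter of rodent beta cells. Its normalized counts were 4267, 4842, 3576 and 2738 over the controls, against 7964, 5195 and 4888 over the KO libraries. The groups did not overlap, though control 2 and the unnumbered KO library were close. Its log2 fold change was 0.64 ± 0.22 (SE), adjusted p 0.0663 by DESeq2 and 0.298 by edgeR. It passed without control 2 (0.77, adjusted p 0.0129), without the unnumbered KO library (0.77, 0.0255) and without both deepest libraries (0.64, 0.0134 by DESeq2). Without KO 1 it was at 0.39 (adjusted p 0.724). For each 100 Ins2 counts there were 1.06, 1.04, 1.04 and 1.25 Slc2a2 counts over the controls, and 1.28, 1.27 and 1.49 over the KO libraries. These did not overlap, but control 4 was close to KO 1 and KO 2 (exact permutation p = 0.0571).

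Trpm5 (ENSMUSG00000009246, chromosome 7, 143069153 to 143094642, minus strand), which encodes a calcium-activated cation channel that takes part in beta cell depolarization, was the least abundant of the 10. Its normalized counts were 558, 757, 434 and 377 over the controls, against 1014, 746 and 912 over the KO libraries, and of these KO 2 alone fell within the control range. Its log2 fold change was 0.75 ± 0.25 (SE), adjusted p 0.0645 by DESeq2 and 0.242 by edgeR. Without control 2 it passed (0.97, adjusted p 0.000872 by DESeq2). Exons of the opposite-strand gene Tssc4 cover 3.4% of its exon length, and the strand setting of the counting is not given. Its ratio to Ins2 was 0.138, 0.163, 0.126 and 0.172 per 100 over the controls and 0.162, 0.182 and 0.278 over the KO libraries, with KO 1 inside the control range (exact permutation p = 0.143).

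Ucn3 (ENSMUSG00000044988, chromosome 13, 3940688 to 3945349, minus strand) encodes urocortin 3, a peptide of mature mouse beta cells that acts on delta cells. Its normalized counts were 1537, 1293, 1318 and 838 over the controls, against 2300, 1876 and 1345 over the KO libraries, the unnumbered library lying within the control range. Its log2 fold change was 0.56 ± 0.23 (SE), adjusted p 0.205 by DESeq2 and 0.415 by edgeR. It passed without the unnumbered KO library (0.74, adjusted p 0.0383) and without both deepest libraries (0.59, 0.00186 by DESeq2). Its mean per 100 Ins2 counts was 0.356 ± 0.0514 (SD, n = 4) for controls, against 0.412 ± 0.0449 (SD, n = 3) for KO (exact permutation p = 0.286).

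G6pc2 (ENSMUSG00000005232, chromosome 2, 69211073 to 69227841, plus strand) encodes the islet glucose-6-phosphatase catalytic subunit, which opposes glucokinase. It had the smallest difference of the 10, with 8014, 9062, 5033 and 4286 normalized counts over the controls, against 10699, 5593 and 6439 over the KO libraries. KO 1 was the highest of all and the other KO libraries lay among the controls. Its log2 fold change was 0.2 ± 0.27 (SE), adjusted p 0.975 by DESeq2 and 0.943 by edgeR (95% interval -0.33 to 0.73), and it was -0.14 without KO 1. Over 20 alternative fits the G6pc2 value ran from -0.14 to 0.63, and 1 of them passed (adjusted p 0.0409 by DESeq2). Its mean per 100 Ins2 counts was 1.84 ± 0.253 (SD, n = 4) for controls, against 1.68 ± 0.299 (SD, n = 3) for KO, a difference within the spread (exact permutation p = 0.514).

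**Figure D4:**
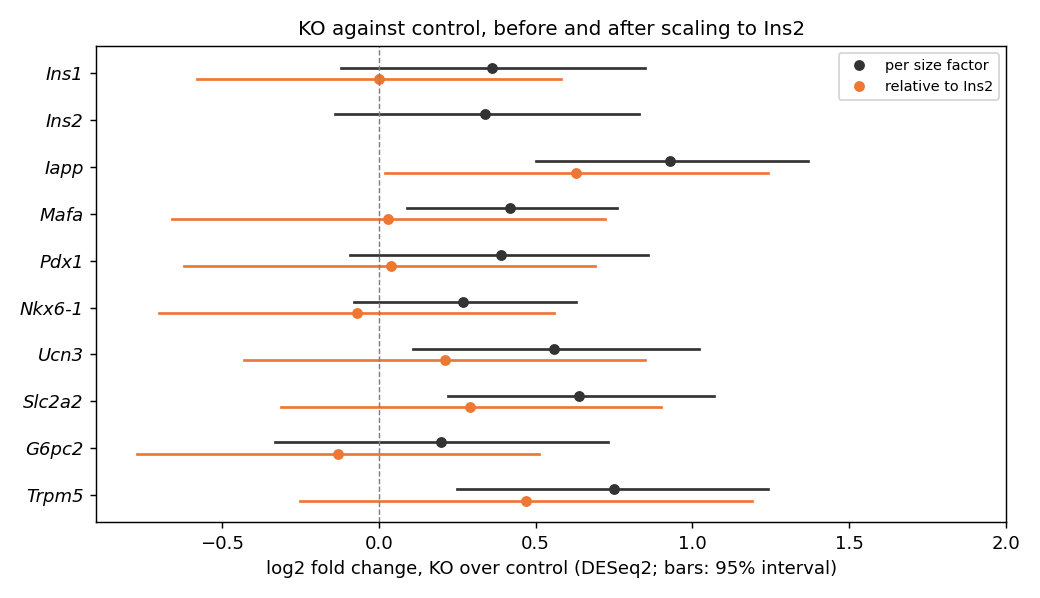
Log2 fold changes of KO over control with 95% intervals from DESeq2, with the usual size factors (black) and relative to Ins2 (orange). Relative to Ins2, the estimates of Ins1, Mafa, Pdx1 and Nkx6-1 lie between -0.07 and 0.04, and that of Iapp is 0.63.

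Abundance was compared between genes by length-scaled counts, that is, CPM over exon length in kilobases. Control means were 4821 for Ins2, 1736 for Ins1 and 1004 for Iapp. G6pc2 followed at 59.3, then Nkx6-1 at 21.3, Pdx1 at 15.6, Ucn3 at 14.9, Slc2a2 at 11.9, Mafa at 11.4 and Trpm5 at 1.47. The hormone genes were thus far above the others. Pdx1 exceeded Ucn3 in 2 of 4 controls and 0 of 3 KO libraries, and Slc2a2 exceeded Mafa in 2 of 4 and 2 of 3, so these neighbours could not be ordered. Ins1 exceeded Iapp in 4 of 4 controls and 2 of 3 KO libraries, and all other neighbours kept their order in all 7 libraries.

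By the SD of the log2 ratio to Ins2, the genes after Ins1 were Nkx6-1 (0.192, rank 23 of 12724), Slc2a2 (0.196, rank 29), Ucn3 (0.218, rank 53), Pdx1 (0.222, rank 59) and G6pc2 (0.227, rank 65). Mafa had 0.293 (rank 348), Trpm5 0.364 (rank 1619) and Iapp 0.372 (rank 1852). Nkx2-2 had 0.606 and glucagon (Gcg) 0.85. The 5 other genes closest to Ins2 were Rspo4 (0.1), which encodes an R-spondin that enhances Wnt signalling, the processed pseudogene Rpl36a-ps2 (0.118), the cadherin gene Cdh22 (0.135), the unclassified transcript model Gm38070 (0.141) and Loxl2 (0.155), which encodes a lysyl oxidase. Rspo4 had 458, 524, 386 and 256 normalized counts over the controls, and 634, 426 and 410 over the KO libraries. As for Ins2, it was highest in KO 1, then control 2, and lowest in control 4. None of these 5 passed for KO against control. All values share the Ins2 count as divisor.

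Most further beta cell genes also had positive fold changes. Of 12 such genes, 2 passed by DESeq2, both higher in KO, and 0 by edgeR, with 10 positive fold changes and a median of 0.34. Over all genes tested, 2.19% were called higher by DESeq2 and 9319 of 18023 had a positive fold change. Glp1r, the receptor gene for glucagon-like peptide 1, had 7122, 6299, 5505 and 4151 normalized counts over the controls, against 12189, 7852 and 7338 over the KO libraries (log2 fold change 0.66 ± 0.21 (SE), adjusted p 0.0441 by DESeq2 and 0.277 by edgeR). It did not pass without KO 1 (0.39, adjusted p 0.626) or without control 3 (0.64, 0.16). Npy, the neuropeptide Y gene, had 132, 1833, 358 and 191 normalized counts over the controls, against 5400, 6328 and 5047 over the KO libraries (log2 fold change 3.15 ± 0.97 (SE), adjusted p 0.0297 by DESeq2 and 0.12 by edgeR). Control 2 was far above the other controls, and every KO library was higher still. Npy lost the DESeq2 call without control 1 (adjusted p 0.0813), control 3 (0.156), control 4 (0.0743) or both deepest libraries (0.228). For each 100 Ins2 counts Npy had 0.155 ± 0.163 (SD, n = 4) for controls, against 1.32 ± 0.39 (SD, n = 3) for KO, with an adjusted p of 0.000268 by DESeq2 and 0.0434 by edgeR in the fits relative to Ins2. Of the rest, Cltrn had a log2 fold change of 0.16, Ero1lb, which encodes an oxidoreductase for insulin folding, 0.4, Ppp1r1a 0.36 and Gjd2, the gap junction gene of beta cells, 0.29. The 2 with negative values, named after these were seen, were Mnx1 (-0.11, adjusted p 0.999 by DESeq2) and Ffar1, a fatty acid receptor gene (-0.42, 0.31 by DESeq2 and 0.479 by edgeR). Ffar1 per 100 Ins2 counts had 0.847 ± 0.227 (SD, n = 4) for controls, against 0.479 ± 0.0871 (SD, n = 3) for KO, with all KO libraries below all controls, as for 4.08% of all genes (exact permutation p = 0.0571, unadjusted).

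Regulators of the insulin gene that are found in several islet cell types moved in both directions. Of 9, 1 was higher and 1 lower past the DESeq2 threshold, with a median of 0.04, and 1 passed in edgeR. Among all genes tested, 394 of 18023 were called higher and 397 lower by DESeq2, and 203 of 19310 were called by edgeR. Isl1, which encodes a LIM homeodomain factor, had 8514, 10661, 9413 and 10586 normalized counts over the controls, against 12925, 15240 and 11706 over the KO libraries (log2 fold change 0.44 ± 0.13 (SE), adjusted p 0.023 by DESeq2 and 0.169 by edgeR). It did not pass by DESeq2 without control 1, control 3, KO 1 or KO 2 (adjusted p 0.127, 0.121, 0.144 and 0.243). Pax6, Rfx6, Neurod1 and Glis3 had log2 fold changes of 0.01, 0.14, -0.16 and 0.1, none past the threshold.

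Genes of insulin processing and secretion moved in both directions too. Of 10, 1 was higher and 1 lower past the DESeq2 threshold, with a median of -0.08, and 0 passed in edgeR. Among all genes tested, 394 of 18023 were called higher and 397 lower by DESeq2, and 1.05% were called by edgeR. Pcsk1, which encodes the convertase that starts proinsulin cleavage, had 3839, 4327, 2789 and 2025 normalized counts over the controls, against 6887, 5649 and 5004 over the KO libraries (log2 fold change 0.85 ± 0.23 (SE), adjusted p 0.00897 by DESeq2 and 0.177 by edgeR). It lost the DESeq2 call without control 3 (adjusted p 0.0644) and without KO 1 (0.193). Pcsk1 per 100 Ins2 counts had 0.904 ± 0.0649 (SD, n = 4) for controls, against 1.33 ± 0.214 (SD, n = 3) for KO, with all KO libraries above all controls, as for 1.18% of all genes (exact permutation p = 0.0286, unadjusted). In the fits relative to Ins2 its adjusted p was 0.839 by DESeq2 and 0.821 by edgeR. Cacna1d, a voltage-gated calcium channel gene, had 9352, 8661, 9289 and 13918 normalized counts over the controls, against 5649, 4503 and 6990 over the KO libraries (log2 fold change -0.85 ± 0.19 (SE), adjusted p 0.000754 by DESeq2 and 0.1 by edgeR), and control 4 stood far above the other controls. Pcsk2, Cpe, Abcc8 and Slc30a8 encode the other convertase, carboxypeptidase E, the sulphonylurea receptor and the granule zinc transporter. Their log2 fold changes were -0.06, -0.41, -0.08 and -0.34, none past the threshold. In controls these genes stood at 76.1, 40.3, 23.9 and 9.22 counts per 100 Ins2 counts, which are not scaled to gene length. Scaled to exon length, as CPM per kilobase, their control means were 599, 927, 169 and 272, against 4821 for Ins2. Which cells the counts of the secretion genes came from was not tested.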

How the data were processed

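RNA from sorted alpha cells was made into stranded libraries for very low inputs (Takara SMARTer), per the labels' protocols. The authors deposited 1 table of whole-number counts per gene for 7 libraries. STAR, featureCounts, FastQC, DESeq2 and build mm10 are named in the submitters' processing notes, and the strand setting is not given in the sources used here. Of counts from 1 to 10, 84.4% to 88.9% were even, as when both mates of a pair are counted, so counting intervals are too narrow.

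KO was compared with control in DESeq2 1.42.0 (R 4.3.3, Wald test, no covariate, Benjamini-Hochberg adjustment over all genes, threshold 0.05), the test that the design text states. The quasi-likelihood test of edgeR 4.0.16 is given beside it. Both were tested on simulated data at the same threshold, where 29.1% of the DESeq2 calls and 5.47% of the edgeR calls were false. Of the calls by DESeq2 scaled to Ins2, 22.1% were false there. Calls made by DESeq2 alone are therefore less certain than the threshold states. Ratios to Ins2 were tested by exact two-sided permutation of log2 ratios over 35 splits and by both tools with Ins2 counts as the scaling. The genes, lists and alternatives were chosen with earlier results of these data known. Named genes are the 10 genes, Nkx2-2, glucagon, listed genes past the threshold, up to 4 more per list by abundance, and the 5 genes nearest Ins2. One listed gene past the threshold is not reported here, and it remains in the counts over its list. Positions are from GENCODE M21 (GRCm38), which holds all 55536 identifiers, and promoters from RefSeq on GRCm38.p6.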

Additional observations from a re-analysis of the deposited data

Results flagged for a closer look

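In 7 of 39 sets of 4 control values, a single control lay further from the rest than the critical value of Dixon's test allows, where 1.95 sets would do so by chance. As ratios per 100 Ins2 counts, Ucn3 had 0.279 in control 2, the other controls lying between 0.381 and 0.382. G6pc2 had 1.46 in control 3 (others 1.95 to 1.99), and Slc2a2 had 1.25 in control 4 (others 1.04 to 1.06). As normalized counts, Npy had 1833 in control 2 (others 132 to 358). The remaining 3 were all in control 4, where Cacna1d had 13918 (others 8661 to 9352), Pcsk2 165180 (others 294130 to 318439) and Abcc8 93871 (others 69217 to 71285).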

How the results depend on the processing

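Of the 10 beta cell genes, 1 passed by DESeq2. The number was 0 in edgeR, 5 with library totals as size factors (where 685 of 18005 genes tested were called higher, against 394 of 18023), 3 without the 2 deepest libraries (469 of 15999), 7 with a term for them (706 of 18638), 4 with the replicate block by column number (563 of 19183), 2 of 8 with the Ins2 covariate, 8 with the Y-linked covariate (651 of 19969), and from 0 to 3 with each library left out. With a library left out, 0 passed without KO 1 (188 of 17855 called higher). The number was 3 without control 2 (496 of 18588) and without the unnumbered KO library (328 of 17111). Library totals shifted the all-gene median by 0.1 and raised the share of calls that were higher from 49.8% to 69.7%. Relative to Ins2, 0 passed under every alternative run, which does not show that these ratios are equal. The errors of the DESeq2 fit relative to Ins2 were wide beside the spread of the ratios, as given above for Ins1 and Iapp.

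Of 31 genes in the other lists, 6 passed, where 791 of 18023 genes tested were called. The number was 1 in edgeR (203 of 19310 genes tested), 13 with the deepest-library term (1380 of 18638) and 10 with the block by column number (1009 of 19183). It was 11 with the Ins2 covariate (732 of 17986) and 12 with the Y-linked covariate (1280 of 19969). With a library left out it ran from 2 without KO 1 (430 of 17855) to 9 without control 2 (898 of 18588). Among further beta cell genes, 0 passed in edgeR and without independent filtering, 5 with the deepest-library term, 7 with the Y-linked covariate, and 0 to 3 with a library left out. Among regulators it was 1 in edgeR and with the Y-linked covariate, and 1 to 2 with a library left out. Among secretion genes it was 0 in edgeR, 5 without the deepest libraries, 6 with their term, 5 with the Ins2 covariate and with the block by column number, 4 with the Y-linked covariate, and 1 to 4 with a library left out.

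Title numbers 1 and 2 and column numbers 1, 2 and 4 occur in both groups, and nothing in the labels says that they pair samples. Deviations from the group means correlated at 0.29, 0.283 and 0.48 over genes for these 3 pairs, but KO 2 was closest to control 3 (0.377), and the pair numbered 4 holds the deepest library of each group. With a replicate block on the 4 libraries numbered 1 and 2, chosen after seeing the data, 2 of the 10 genes passed (Mafa and Ucn3), 1 further beta cell gene and 4 secretion genes. Of 15160 genes tested with this block, 579 were called, 351 of them higher. There Iapp was at 0.68 (adjusted p 0.794 by DESeq2) and Slc2a2 at 0.5 (1). In these libraries without the block, also chosen after seeing the data, the numbers were 4, 0 and 5, with Iapp at 0.7 (8.67e-05) and Slc2a2 at 0.53 (0.0421). Of 16237 genes tested without the block, 622 were called, 353 of them higher.

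Small fold changes changed sign. G6pc2 was at -0.14 without KO 1, -0.12 with the Ins2 covariate, -0.14 with the block and -0.07 in those 4 libraries without it. Relative to Ins2 with a library left out, Ins1 reached 0, 0.02 and 0.04, Mafa -0.06 and -0.07, Pdx1 0, -0.07 and -0.04 (-0.06 with the block by column number), and Nkx6-1 0.04 and 0.05. Ins1 was at 0.06 without the deepest libraries and with the block. Pax6 reached -0.01, -0.04 and -0.12 with a library left out, -0.05 without the deepest libraries, -0.02 with their term and with the Y-linked covariate, and -0.1 in the 4 libraries with or without the block and -0.05 with that by column number. Glis3 was at 0 without the deepest libraries and -0.03 in the 4 libraries. Pcsk2 was at 0.04 with library totals, 0.03 and 0.07 with a library left out, 0.02 with the deepest-library term, 0.06 with the block by column number and 0.07 with the Y-linked covariate. Abcc8 was at 0.02 with library totals, 0.04 without control 4 and 0.05 with the Ins2 covariate. The cause was not tested.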

Other observations

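For each 100 counts of the pancreatic polypeptide gene Ppy, Iapp had 29.9, 18.7, 19.6 and 20.8 over the controls, against 21.3, 12 and 11.8 over the KO libraries. KO 2 and the unnumbered library were thus below all controls by this ratio. For each 100 glucagon counts, Iapp had 0.85, 1.15, 0.564 and 0.602 over the controls, against 3.93, 2.29 and 3.23. Hadh, a gene of fatty acid oxidation that is abundant in beta cells, was picked out after its values were seen. It had 4886, 6960, 3328 and 2542 normalized counts over the controls, against 10478, 9049 and 8051 over the KO libraries, with no overlap (adjusted p 0.11 by DESeq2 and 0.175 by edgeR).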
